A study of Mus musculus with 12 samples.

Results

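Cd14 and 9 other genes of Toll-like receptor signalling were followed in adipose tissue of mice on a high-fat diet (HFD). The 10 genes are Cd14, Tlr2, Tlr4, Ly96, Lbp, Myd88, Irak3, Tnf, Il1b and Icam1, out of 18193 genes named on the arrays. They were taken from a list, and Cd14 and Tlr2 were put on it because their signal was lower on HFD, so these 2 were chosen by their measured difference from chow. Their values against chow are therefore given as a description without a test. RNA came from C57Bl/6 mice, which all ate chow with 13% of its calories as fat up to an age of 6 weeks. From then on 1 group stayed on chow and the others ate HFD with 46% of its calories as fat for 5 or 14 days. Each group has 4 single-colour Affymetrix arrays. The labels name neither the fat depot nor the sex, and give no age at collection, so age and diet cannot be told apart. They do not say that each array is a separate animal, so a p-value measures the spread between these samples, which may be technical.

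Toll-like receptors recognise molecules of microbes and of damaged cells. For bacterial lipopolysaccharide, the plasma protein LBP (gene Lbp) passes single molecules to CD14, which hands them to the complex of TLR4 and MD-2 (gene Ly96). TLR2 recognises bacterial lipopeptides, also with the help of CD14. Both receptors signal through the adaptor MyD88 and IRAK kinases to the transcription factor NF-kB, and IRAK3 (IRAK-M) restrains that step. Tumour necrosis factor (Tnf), interleukin-1 beta (Il1b) and the leukocyte adhesion molecule ICAM-1 (Icam1) are among the products. In fat, macrophages, adipocytes and vessel cells express parts of this pathway, and TLR4 is known as a candidate link between dietary fat and insulin resistance.

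Promoter windows, the 250 bases before a RefSeq start (GRCm38.p6), were used for 6 of the 10 genes (7 windows). That start is not always the outermost one of the gene. No window of Cd14, Tlr4, Ly96 or Lbp was examined, so the motif counts below say nothing about their promoters. That of Tlr2 is shown as the window with the NF-kB consensus, and those of Icam1 and Tnf as windows of products of the pathway without it. The arrays of both products overlapped between diets. Tlr2 lies on the minus strand (chr3:83841609-83841858), Icam1 on the plus strand (chr9:21015690-21015939) and Tnf on the minus strand (chr17:35202008-35202257). The windows of Icam1 and Tnf adjoin the annotated span of their gene. That of Tlr2 precedes an inner start and lies mostly inside the annotated span (chr3:83836272-83841824), as do its NF-kB matches. Capitals mark the NF-kB consensus in Tlr2, GGGCGG read on the other strand in Icam1, and TATAAA and GAGGAA (the latter read on the other strand) in Tnf.
Tlr2: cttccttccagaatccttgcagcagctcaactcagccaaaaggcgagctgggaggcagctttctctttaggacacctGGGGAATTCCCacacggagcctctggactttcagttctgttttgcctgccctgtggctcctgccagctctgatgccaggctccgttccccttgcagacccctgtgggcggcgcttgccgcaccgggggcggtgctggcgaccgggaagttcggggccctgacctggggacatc
Icam1: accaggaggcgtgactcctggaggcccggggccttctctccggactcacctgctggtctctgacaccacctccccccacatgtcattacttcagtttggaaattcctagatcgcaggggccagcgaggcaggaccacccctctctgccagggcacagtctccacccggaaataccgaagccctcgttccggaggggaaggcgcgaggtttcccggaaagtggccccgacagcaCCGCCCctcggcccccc
Tnf: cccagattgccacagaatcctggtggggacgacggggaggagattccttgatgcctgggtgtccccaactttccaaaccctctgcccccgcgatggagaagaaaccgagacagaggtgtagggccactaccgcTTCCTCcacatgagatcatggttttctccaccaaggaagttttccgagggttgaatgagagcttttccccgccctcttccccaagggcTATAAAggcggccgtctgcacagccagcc
On both strands, the NF-kB consensus was matched in 1 of the 7 windows, that of Tlr2, where 2 matches overlap, from position −173 to −164 and from −172 to −163 (−1 is the base before the start). It was matched in 7.25% of all 32851 windows of this length. TATAAA was found in 3 of the 7 windows (Tnf, Il1b and Myd88) against 12.4% of all, GGGCGG in 5 against 32.7%, GAGGAA in 1 against 23.3%, and the AP-1 motif TGANTCA in 0 against 6.75%. These matches describe letters in the window and show no binding. The NF-kB consensus was 1 fixed pattern of 10 letters, so a window without a match may still hold a site that differs from it.

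The deposited values are log2 signals, with array medians from 8.09 to 8.14. Adipocyte markers, the check of the tissue label, averaged between 13.63 and 14.14 on all 12 arrays. The 4 epididymis markers on the array averaged 10.88 to 11.82 in 5-day arrays 1 to 3 and 12.36 in 14-day array 4, against 6.91 to 7.54 in the other 8 arrays. Over all probe sets, 14-day array 4 correlated with 5-day arrays 1 to 3 at r = 0.979 to 0.985 and with the other 14-day arrays at 0.957 to 0.968. In the same way 5-day array 4 correlated with 14-day arrays 1 to 3 at 0.987 to 0.992 and with its own group at 0.977 to 0.980. The labels were kept, and whether those of these 2 arrays were exchanged cannot be told from the files. An exchange would change every 5-day and 14-day mean below, so the main values are also given without both high-fat arrays numbered 4. In bulk tissue, fewer cells of a type and less RNA per cell cannot be told apart.

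CD14 is the co-receptor that concentrates lipopolysaccharide and lipopeptides at the cell surface. Its log2 signal was 10.88, 11.01, 10.96 and 10.75 in chow arrays 1 to 4. It was 10.32, 10.39, 10.38 and 10.36 in the 5-day arrays, and 10.03, 10.37, 10.14 and 9.63 in the 14-day arrays. All 8 HFD arrays lay below all 4 chow arrays, while the HFD groups overlapped through 14-day array 2. Group means were 10.90 ± 0.11, 10.36 ± 0.03 and 10.04 ± 0.31 (SD, n = 4) for chow, 5 and 14 days. The log2 difference from chow was −0.54 ± 0.13 (SE) at 5 days and −0.86 ± 0.13 at 14 days, a change in signal of −31.2% and −44.9%. Without both arrays numbered 4 the differences were −0.54 ± 0.09 and −0.72 ± 0.09.

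TLR2 is the lipopeptide receptor. Its signal in chow was 8.80, 8.56, 8.45 and 8.36. After 5 days it was 8.14, 8.34, 8.13 and 8.05, and after 14 days 8.10, 8.13, 8.30 and 7.82. Again no HFD array reached the lowest chow array, but the nearest values, 8.34 and 8.36, almost met. The log2 difference from chow was −0.37 ± 0.12 at 5 days and −0.46 ± 0.12 at 14 days, and −0.34 ± 0.11 and −0.37 ± 0.11 without both arrays numbered 4. Tlr2, like Cd14, is read by 1 probe set.

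**Figure D1:**
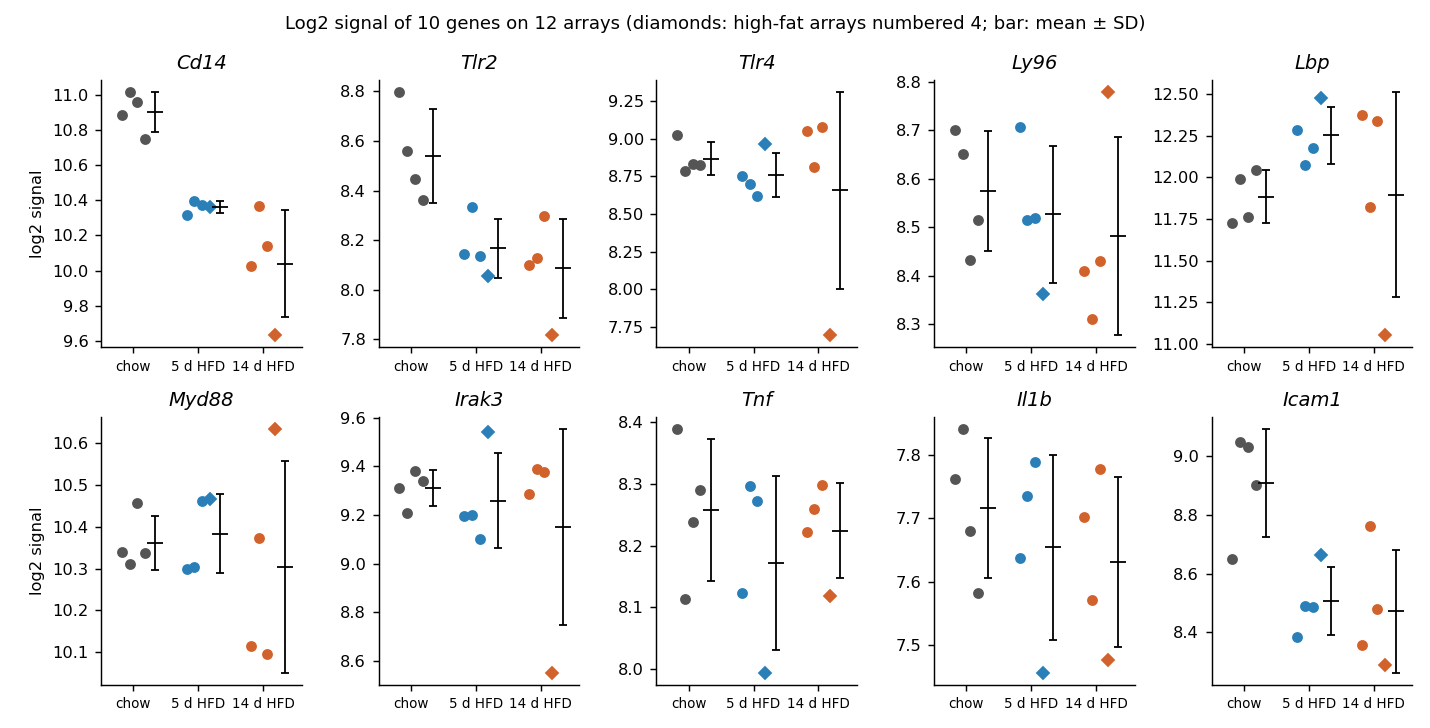
Log2 signal (y axis, its own range in each panel) of the 10 genes on chow, 5-day and 14-day arrays, 1 point per array, with diamonds for the high-fat arrays numbered 4 and mean ± SD as a bar. Cd14 and Tlr2 lie below chow on all 8 HFD arrays, and 14-day array 4 stands at 7.70 for Tlr4, 11.05 for Lbp and 8.55 for Irak3.

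TLR4, the lipopolysaccharide receptor, was not separated by diet. Its main probe set read 9.02, 8.78, 8.84 and 8.83 in chow, 8.75, 8.70, 8.62 and 8.96 at 5 days, and 9.05, 8.81, 9.08 and 7.70 at 14 days. The last value is far below the other 11, and the groups otherwise share their range. The log2 difference was −0.11 ± 0.25 at 5 days (limma adjusted p = 0.918) and −0.21 ± 0.25 at 14 days (limma adjusted p = 0.856). Without 14-day array 4 the 14-day value was 0.11 ± 0.10, and with mean epididymis signal added to the fit (the epididymis covariate) the 5-day value was 0.39 ± 0.16 (limma adjusted p = 0.17). Of its 4 probe sets, 1 stood at 5.47 to 5.89, under the intensity filter of 7.64. The other 2 differed from chow by −0.05 and −0.21 at 5 days and by −0.23 and −0.14 at 14 days.

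Ly96 encodes MD-2, the subunit of the TLR4 complex that binds lipopolysaccharide. It ran from 8.43 to 8.70 in chow, from 8.36 to 8.71 at 5 days and from 8.31 to 8.78 at 14 days. The 3 ranges nearly coincide, and the 14-day maximum is array 4. Differences from chow were −0.049 ± 0.11 and −0.093 ± 0.11 (limma adjusted p = 0.913 and 0.855).

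Lbp encodes the lipopolysaccharide-binding plasma protein, made mostly by the liver. Its signal was 11.73, 11.99, 11.76 and 12.05 in chow, 12.28, 12.08, 12.18 and 12.48 at 5 days, and 12.38, 11.82, 12.34 and 11.05 at 14 days. All 5-day arrays lay above all chow arrays, whereas the 14-day arrays spread to both sides. The difference was 0.37 ± 0.24 at 5 days (limma adjusted p = 0.64) and 0.014 ± 0.24 at 14 days (limma adjusted p = 0.991), and 0.30 ± 0.14 in both without the arrays numbered 4 (limma adjusted p = 0.227 and 0.347). Its second probe set gave 0.63 and 0.25, with the 5-day arrays (9.56 to 10.35) again above chow (8.98 to 9.32). With the epididymis covariate the 5-day difference was 0.83 ± 0.17 and passed (limma adjusted p = 0.0288; 4.83% of genes were called), and with array weights the 14-day difference was 0.39 ± 0.12 and passed (limma adjusted p = 0.0345; 22.4% of genes were called).

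Liver transcripts were present on some arrays. The mean of 8 liver markers was 9.15, 11.50, 9.39 and 13.34 at 5 days and 12.85, 8.88, 11.57 and 8.86 at 14 days. In chow it was 7.96, 7.87, 12.05 and 10.06. All 8 markers had higher means than chow at both times, by a mean of 1.36 and 1.06. Among the HFD arrays, the highest Lbp signals, 12.48, 12.38 and 12.34, came with liver means of 13.34, 12.85 and 11.57, and the lowest, 11.82 and 11.05, with 8.88 and 8.86. Between them, 5-day arrays 1 to 3 did not follow this order, with Lbp at 12.28, 12.08 and 12.18 and liver means of 9.15, 11.50 and 9.39. In chow the array with the highest liver mean, 12.05, had an Lbp signal of 11.76, near the lowest of its group. The part of liver RNA in the Lbp difference was not tested.

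Myd88 encodes the adaptor shared by TLR2, TLR4 and the interleukin-1 receptor. It stood at 10.31 to 10.46 in chow, 10.30 to 10.47 at 5 days and 10.10 to 10.63 at 14 days. The 14-day arrays were split, with 10.12 and 10.10 in arrays 1 and 3, below every other array, and 10.37 and 10.63 in arrays 2 and 4. Differences from chow were 0.022 ± 0.11 and −0.057 ± 0.11 (limma adjusted p = 0.962 and 0.912). With array weights the 14-day value was −0.22 ± 0.06 and passed (limma adjusted p = 0.0279), in a fit that called 22.4% of all genes.

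Irak3 encodes IRAK-M, the brake on this step. It read 9.31, 9.21, 9.38 and 9.34 in chow, 9.20, 9.20, 9.10 and 9.54 at 5 days, and 9.28, 9.39, 9.38 and 8.55 at 14 days. As for Tlr4, the lowest value belonged to 14-day array 4, and among 5-day arrays the highest was array 4. Differences from chow were −0.051 ± 0.17 and −0.16 ± 0.17 (limma adjusted p = 0.943 and 0.845). Its second probe set gave −0.22 at both times.

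Tnf and Il1b, the cytokine products, did not separate the diets. Tnf ran from 8.11 to 8.39 in chow, from 7.99 to 8.30 at 5 days and from 8.12 to 8.30 at 14 days, with differences from chow of −0.086 ± 0.08 and −0.033 ± 0.08 (limma adjusted p = 0.772 and 0.933). Il1b ran from 7.58 to 7.84, 7.46 to 7.79 and 7.48 to 7.78, with −0.061 ± 0.09 and −0.084 ± 0.09 (limma adjusted p = 0.86 and 0.847). The mean of Il1b over all arrays, 7.67, was just above the filter of 7.64, so its signal is near the dim end of the array.

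Icam1, which lets leukocytes adhere to the vessel wall, gave 8.65, 9.05, 9.03 and 8.90 in chow. It gave 8.39, 8.49, 8.49 and 8.66 at 5 days and 8.36, 8.76, 8.48 and 8.29 at 14 days. Chow arrays 2 to 4 lay above all HFD arrays, and chow array 1 within their range. The difference was −0.40 ± 0.12 at 5 days and −0.44 ± 0.12 at 14 days, and neither passed (limma adjusted p = 0.347 and 0.488). It passed at 5 days without both arrays numbered 4, at −0.45 ± 0.11 (limma adjusted p = 0.0458), a fit that called 6.62% of genes. At 14 days that fit gave −0.37 ± 0.11 and Icam1 did not pass (limma adjusted p = 0.244). With the epididymis covariate it passed at neither time, at −0.28 ± 0.13 and −0.38 ± 0.11 (limma adjusted p = 0.216 and 0.242). With array weights it passed at 5 and 14 days, at −0.50 ± 0.08 and −0.53 ± 0.08 (limma adjusted p = 0.00352 and 0.00739), where 15.1% and 22.4% of genes were called.

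The 14-day and 5-day groups share no chow array, but their arrays were among those on which Cd14 and Tlr2 were picked, so these 2 genes are again described without a test. Cd14 was lower at 14 than at 5 days by a log2 difference of −0.32 ± 0.13, and by −0.19 ± 0.09 without 14-day array 4. Tlr2 differed by −0.082 ± 0.12. Icam1 differed by −0.035 ± 0.12 (limma adjusted p = 0.999). Lbp differed by −0.36 ± 0.24 and Tlr4 by −0.10 ± 0.25 (both with a limma adjusted p of 0.999). Leaving out 14-day array 4 gave −0.08 ± 0.14 and 0.22 ± 0.10 (limma adjusted p = 0.904 and 0.481). The remaining 5 genes lay between −0.11 and 0.05 (limma adjusted p = 0.999 for each). With array weights Myd88 was called, at −0.21 ± 0.06 (limma adjusted p = 0.0476), and 16.6% of genes were called in that fit.

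**Figure D2:**
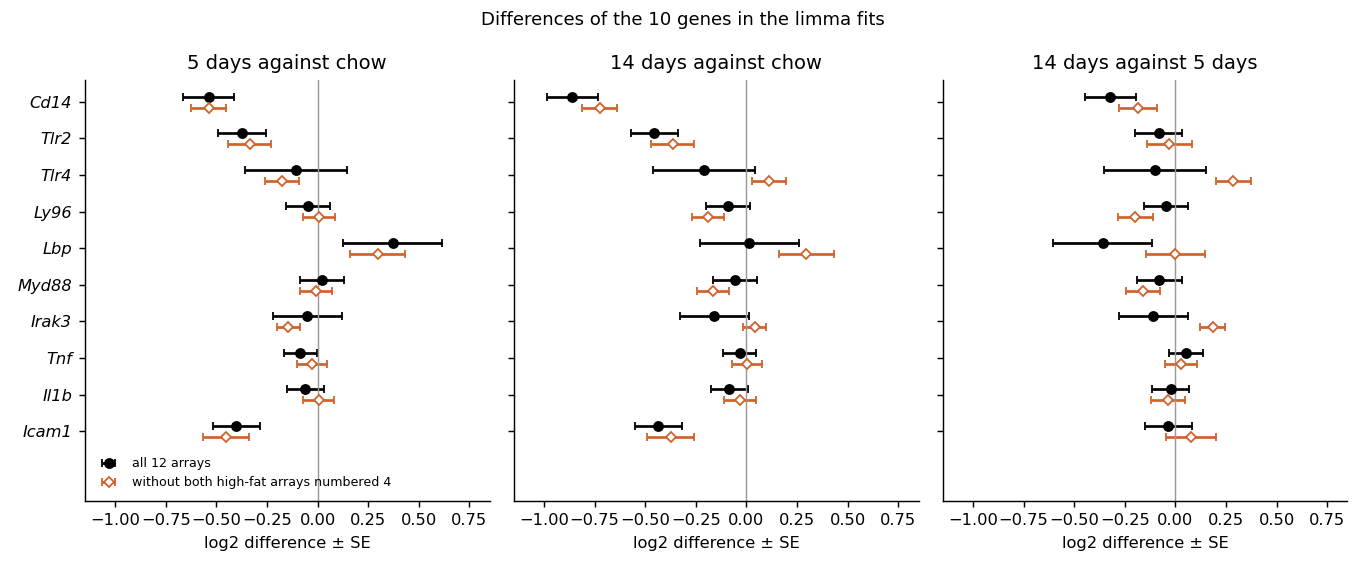
Log2 difference with its standard error (x axis) for each of the 10 genes in the 3 comparisons, from all 12 arrays (black circles) and without both high-fat arrays numbered 4 (open diamonds). Cd14, Tlr2 and Icam1 lie left of 0 against chow in both fits, and Tlr4 moves from −0.21 to 0.11 at 14 days against chow.

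Limma called 0 of 13311 genes (0%) at an adjusted p under 0.05 in each comparison, so 0 of the 8 genes other than Cd14 and Tlr2 passed. At an unadjusted p under 0.05 there were 1345 genes (10.1%) at 5 days against chow, 1061 (7.97%) at 14 days against chow and 340 (2.55%) at 14 against 5 days. Of the 8 genes other than Cd14 and Tlr2, 1 (Icam1) reached that level against chow, as lower, where 5.67% and 4.3% of all genes did at 5 and 14 days. The mean was below chow for 6 of these 8 genes at 5 days and 7 at 14 days, where 50.4% and 44.8% of all genes were below. Without 14-day array 4 it was below chow for 4 of the 8 at 14 days. Median differences were −0.06 and −0.09 over the 8, against −0.0015 and 0.016 over all genes. Arrays did not overlap, with HFD lower, for 2 of the 10 genes at 5 days (4.77% of all genes) and 2 at 14 days (2.26%), which were Cd14 and Tlr2 in both and so follow from how they were picked. Lbp was the 1 gene whose arrays did not overlap with HFD higher, at 5 days (6.49% of all genes), and there were 0 such genes at 14 days (2.37%). At 14 against 5 days the arrays of 0 of the 10 genes were apart in either direction (0.278% of all genes lower and 0.646% higher). The comparisons with chow share the chow arrays and are not independent of each other. At 14 against 5 days 7 of the 8 genes were lower, where 44% of all genes were, but 3 of the 8 without 14-day array 4.

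The other genes of the pathway were taken from 6 lists with 92 genes, of which 85 were on the arrays and 73 above the intensity filter. In each comparison 0 of the 73 passed in either direction. At an unadjusted p under 0.05, 2 were lower and 2 higher at 5 days against chow, where 5.67% and 4.43% of all genes were. The counts were 8 and 1 at 14 days against chow (4.3% and 3.67% of all genes), and 1 and 0 at 14 against 5 days, where 0.789% and 1.77% of all genes were lower and higher. The median difference of the 73 genes was −0.06, −0.04 and −0.0055, against −0.0015, 0.016 and 0.012 for all genes. Arrays lay wholly below chow for 4 of the 73 and wholly above for 3 at 5 days, where 4.77% and 6.49% of all genes did. At 14 days the counts were 3 and 1 (2.26% and 2.37% of all genes). At 14 against 5 days both were 0 (0.278% and 0.646% of all genes).

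Of the 73 genes, 52 were lower than chow at 5 days and 46 at 14 days. For these and for each list below, the share of all genes that were lower was 50.4% and 44.8%. Among the other Toll-like receptors and their partners, 12 of 13 were lower at 5 days (median −0.06) and 11 of 13 at 14 days (median −0.05). With the epididymis covariate 5 of 13 were lower at 5 days, and with array weights 7 of 13 at 14 days. At 14 days against chow the endosomal RNA receptor Tlr7 differed by −0.40 ± 0.15, with all 14-day arrays (7.29 to 8.13) below chow (8.14 to 8.32). Arrays lay wholly below chow for 2.26% of all genes at that time. Ly86, the MD-1 partner of the receptor-like Cd180, differed by −0.42 ± 0.17 and Unc93b1, which carries endosomal receptors, by −0.25 ± 0.12. For Tlr7, Ly86 and Unc93b1 the lowest of all arrays was 14-day array 4, at 7.29, 9.23 and 10.22. In 14-day arrays 1 to 3 they stood at 7.97 to 8.13, 9.76 to 10.14 and 10.64 to 10.89, so part of each difference rests on array 4. The flagellin receptor Tlr5 differed by −0.18 ± 0.09 at 5 days and by 0.18 ± 0.09 between 14 and 5 days. None of these passed (limma adjusted p = 0.58 for Tlr7 and Ly86, 0.623 for Unc93b1, and 0.545 and 0.999 for Tlr5).

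Adaptors and kinases were lower in 7 of 15 at 5 days (median 0.03) and 4 of 15 at 14 days (median 0.04). With the epididymis covariate 3 of 15 were lower at 5 days, and with array weights 7 of 15 at 14 days. Ikbkg, the NEMO subunit of the IkB kinase, was above all chow arrays (9.66 to 9.72) on all 5-day (9.79 to 9.96) and 14-day arrays (9.76 to 9.96), by 0.17 ± 0.06 and 0.21 ± 0.06. Arrays lay wholly above chow for 6.49% of all genes at 5 days and 2.37% at 14 days. The kinase Map3k8 (TPL-2) differed by −0.42 ± 0.14 at 14 days, with 7.67 in array 4 and 8.24 to 8.46 in arrays 1 to 3 against 8.45 to 8.64 in chow. The ubiquitin ligase Peli1 and the kinase Irak2 differed by 0.20 ± 0.09 and 0.22 ± 0.14 at 5 days. Neither Ikbkg (limma adjusted p = 0.391 and 0.488) nor Map3k8 (0.571) passed.

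Of the 9 transcription factors 7 were lower at each time (medians −0.06 and −0.08). Jun, an AP-1 subunit, differed by −0.30 ± 0.17 at 5 days and Fos, its partner, by −0.53 ± 0.27 at 14 days, while the NF-kB subunit Rela differed by 0.11 ± 0.06 at 14 days. Between 14 and 5 days Fos differed by −0.71 ± 0.27, and chow arrays alone spanned 9.22 to 10.42. Of the 13 brakes 8 were lower at 5 days and 6 at 14 days, with medians of −0.0075 and 0.0075. At 5 days 5 of 13 were lower with the epididymis covariate or without 5-day array 1, and at 14 days 10 of 13 after quantile normalization. Nfkbia, the NF-kB inhibitor that NF-kB itself induces, differed by −0.11 ± 0.08 and −0.08 ± 0.08, and Socs3 by −0.38 ± 0.31 at 14 days. Socs3 stood at 8.08 in 14-day array 4 and at 9.02 to 9.50 in 14-day arrays 1 to 3.

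Other induced targets were lower in 13 of 16 at 5 days (median −0.11) and in 12 of 16 at 14 days (median −0.13). With the epididymis covariate 9 of 16 were lower at 5 days. The chemokine Cxcl10 differed by −0.33 ± 0.11 and −0.37 ± 0.11, and its 14-day arrays (7.49 to 7.62) met the lowest chow array, 7.61. At 14 days the chemokine Ccl5 differed by −0.31 ± 0.11 and the vascular adhesion molecule Vcam1 by −0.58 ± 0.23, whereas the platelet and endothelial adhesion molecule Selp differed by 0.41 ± 0.14 at 5 days. Limma adjusted p for these was 0.382 and 0.509 for Cxcl10, 0.571 for Ccl5, 0.58 for Vcam1 and 0.366 for Selp. Ptgs2, the inducible cyclooxygenase, was 12.33 and 11.96 in 5-day arrays 1 and 2, 13.62 in 14-day array 4 and 8.99 in 14-day array 2, and 6.06 to 6.83 on the other 8 arrays. The 5 smooth muscle markers averaged 11.93, 11.97, 13.61 and 10.53 on those same 4 arrays in that order and 9.12 to 10.20 on the other 8. Their part in the Ptgs2 signal was not tested. Another 8 listed targets, among them Il6, Il10 and Ccl3, were under the filter.

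Interleukin-1 and TNF receptors and the enzymes that release their ligands were lower in 5 of 7 at 5 days (median −0.09) and 6 of 7 at 14 days (median −0.10). With the epididymis covariate 3 of 7 were lower at 5 days. The TNF receptor Tnfrsf1b stood at 9.36 to 9.59 in chow, 9.11 to 9.23 at 5 days and 9.02 to 9.32 at 14 days, and Adam17, the protease that sheds TNF, at 10.005 to 10.055, 9.893 to 10.001 and 9.797 to 9.957. For both genes no HFD array reached chow. Arrays lay wholly below chow for 4.77% of all genes at 5 days and 2.26% at 14 days. Tnfrsf1b differed by −0.32 ± 0.08 and −0.25 ± 0.08 (limma adjusted p = 0.331 and 0.558) and Adam17 by −0.09 ± 0.05 and −0.15 ± 0.05 (limma adjusted p = 0.583 and 0.571).

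**Figure D3:**
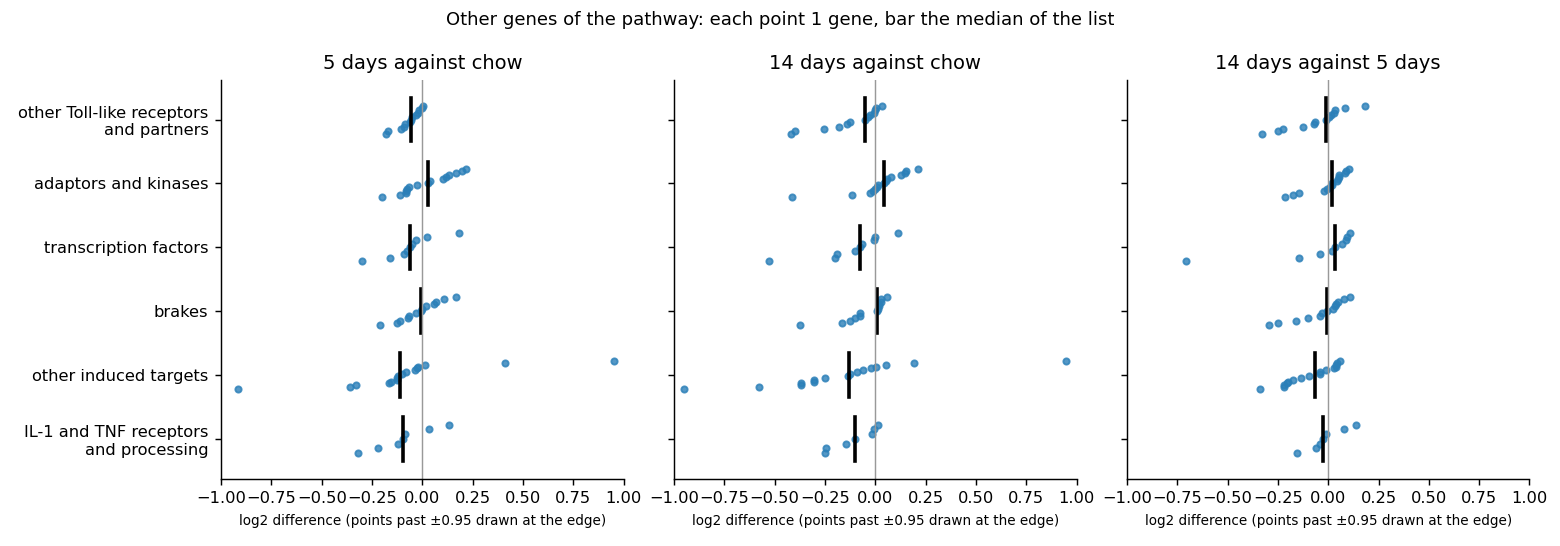
Log2 difference (x axis) of the 73 other pathway genes in 6 lists (rows), 1 point per gene (the few beyond the axis drawn at its edge) and a bar at the list median, for the 3 comparisons. Other Toll-like receptors, transcription factors, induced targets and the receptors for interleukin-1 and TNF have medians below 0 against chow, and adaptors and kinases medians of 0.03 and 0.04.

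Markers of cells that could hold these transcripts were compared between the same groups. The mean of 12 macrophage markers was 10.97 to 11.18 in chow, 10.84 to 11.11 at 5 days and 9.88 to 11.02 at 14 days, with 10 of 12 markers lower at 5 days (median −0.12) and 12 of 12 at 14 days (median −0.48). The array lowest in Cd14, 14-day array 4, was also lowest in macrophage markers, at 9.88, while 14-day arrays 1 to 3 averaged 10.64 to 11.02. The mean of 8 mesothelium markers was 10.55 to 10.84 in chow, 9.81 to 10.34 at 5 days and 9.53 to 10.66 at 14 days, with 8 and 7 of 8 lower. Fibroblast and preadipocyte markers averaged 12.03 to 12.17, 11.77 to 12.16 and 11.33 to 11.83, with 6 and 7 of 7 lower. Mast cell markers averaged 8.64 to 8.81, 8.44 to 8.65 and 8.25 to 8.49, with 4 of 4 lower at both times. Endothelium markers, which bear on Icam1, averaged 10.39 to 10.73, 10.44 to 11.31 and 10.15 to 10.91. Of these, 4 of 8 were lower at 5 days (mean shift 0.12) and 7 of 8 at 14 days (mean shift −0.19). The part of these cells in the differences of Cd14, Tlr2 and Icam1 was not tested.

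Other cell types differed less evenly. At 14 days against chow the mean shift was −0.24 for neutrophil, −0.17 for dendritic cell, −0.03 for T cell, −0.04 for B cell and 0.19 for monocyte markers, over 6, 5, 3, 3 and 2 genes on the array. At 5 days these shifts were 0.11, −0.04, −0.04, −0.19 and 0.53. Of the 2 monocyte markers, Ccr2 differed by −0.14 and −0.16 at 5 and 14 days and Plac8 by 1.20 and 0.54. Plac8 was 11.57 to 11.89 in 5-day arrays 1 to 3 and 13.51 in 14-day array 4, the arrays with high epididymis markers, and 9.06 to 10.15 in the other 8. Adipocyte markers shifted by 0.04 at 5 days and −0.0024 at 14 days.

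**Figure D4:**
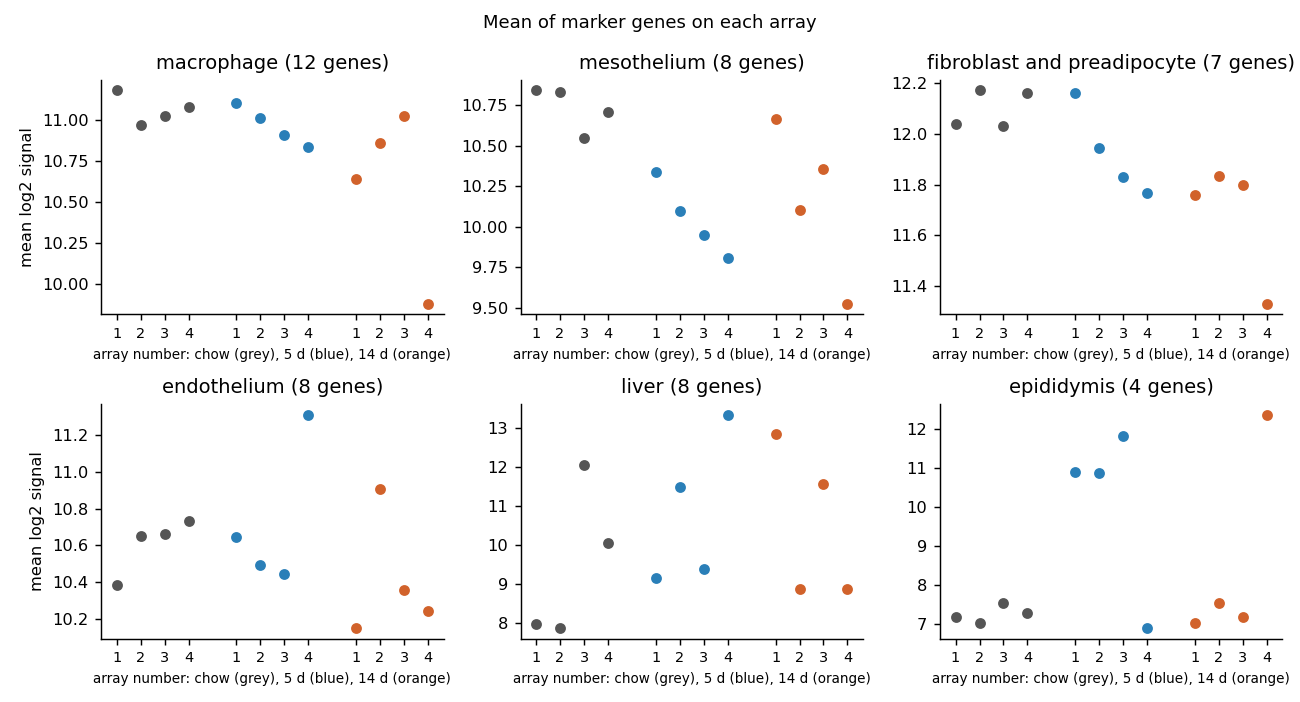
Mean log2 signal (y axis, its own range in each panel) of marker genes of 6 cell types or tissues on each of the 12 arrays (x axis). Macrophage markers lie between 10.64 and 11.18 except in 14-day array 4 (9.88), and epididymis markers are high in 5-day arrays 1 to 3 and 14-day array 4.

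Among the 10 genes themselves, Cd14 ran with Icam1 (Pearson r = 0.86, Spearman rho = 0.87 over 12 arrays) and with Tlr2 (r = 0.85, rho = 0.85). Once each group's mean was taken off, these were r = 0.69 and 0.58. Cd14 and Tlr2 were both picked for their fall with diet, so their r over the 12 arrays follows in part from that choice. Tlr2 and Icam1 had r = 0.59 (rho = 0.61), and r = −0.11 with group means taken off. Tlr4 ran with Irak3 (r = 0.93, rho = 0.71), and against Myd88 (r = −0.72, rho = −0.43), with 14-day array 4 at the end of each relation. These values describe 12 arrays that share diet groups and other tissues' RNA.

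The genes above the filter most like Cd14 over the 12 arrays were Drap1 (r = 0.94, rho = 0.83), Cxcl16 (0.92, 0.78), Rassf2 (0.92, 0.90), Angpt1 (0.92, 0.91) and Gas6 (0.92, 0.83). Drap1 is a transcriptional corepressor subunit, Cxcl16 a chemokine that also acts as a scavenger receptor, Rassf2 a Ras-association protein, Angpt1 a ligand of the endothelial receptor Tek, and Gas6 a ligand of the TAM receptors. Gas6 averaged 12.73 ± 0.14 in chow, 11.99 ± 0.19 at 5 days and 11.80 ± 0.34 at 14 days (SD, n = 4), and Drap1 12.57 ± 0.06, 12.42 ± 0.02 and 12.31 ± 0.16. With group means taken off, r with Cd14 ran from 0.66 for Gas6 to 0.88 for Drap1, and without 14-day array 4 it ran from 0.88 to 0.92 over the 5 genes.

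Most like Tlr2 were C5ar1 (r = 0.93, rho = 0.91), Gfpt2 (0.93, 0.96), Fth1 (0.92, 0.95), Axl (0.91, 0.97) and Sema3e (0.90, 0.91). C5ar1 is the receptor of complement fragment C5a, Gfpt2 an enzyme of hexosamine synthesis, Fth1 the ferritin heavy chain, Axl a TAM receptor and Sema3e a semaphorin ligand. C5ar1 averaged 8.66 ± 0.22, 8.45 ± 0.12 and 8.28 ± 0.18, and Axl 11.64 ± 0.10, 11.33 ± 0.21 and 11.16 ± 0.27. With group means taken off, r with Tlr2 ran from 0.80 for Axl to 0.91 for C5ar1. These 10 genes were chosen for their likeness over the same arrays to Cd14 or Tlr2, themselves picked for their fall. The r values therefore carry no test, and the lower HFD means of these genes follow in part from that choice.

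**Figure D5:**
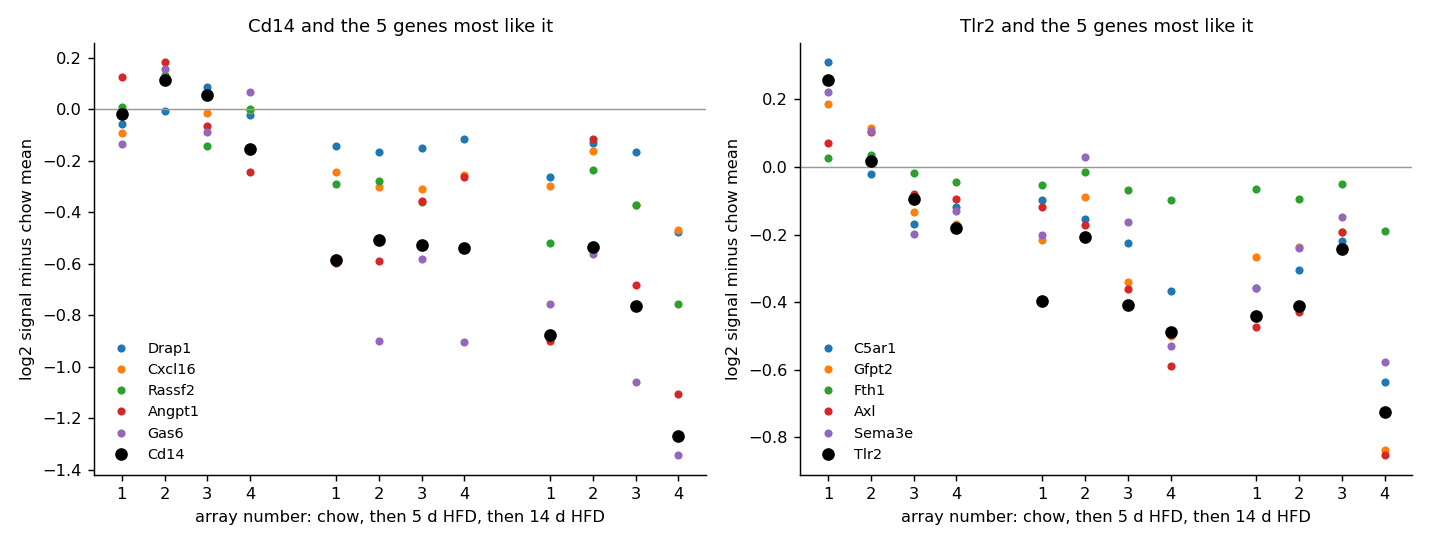
Log2 signal minus the chow mean (y axis) on the 12 arrays (x axis) for Cd14 (left, black) and Tlr2 (right, black) with the 5 genes most like each (colours). All 5 genes on the left lie below their chow mean on every HFD array, which follows in part from their choice for likeness to Cd14. The lowest array for Cd14 and for Tlr2 is 14-day array 4.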

How the data were processed

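The authors deposited 1 table of 45098 probe sets, read as log2 values from their range and near-equal array distributions; their probe summary and normalization are not given in the sources used here. Per the labels' protocols, biotin-labelled RNA was hybridised to Affymetrix arrays. Probe sets were named from the platform annotation: 34945 carried 1 symbol, 932 several (not used) and 9160 none, beside 61 controls. Of those with 1 symbol, 34741 matched RefSeq. A gene's main probe set was the one with the highest mean over 12 arrays, and 13311 of 18193 genes reached 7.64 log2, the 40th percentile over probe sets. A single fit over the 3 groups was made in limma 3.58.1 (R 4.3.3) (eBayes with trend), two-sided, with a call at a Benjamini-Hochberg adjusted p under 0.05 over the genes kept. The procedure was tested on simulated data. Precision is limited by 4 arrays a group.

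The members and gene lists were chosen with earlier results of these data known. The rule for named genes took all 10 members, up to 4 genes of smallest p per pathway list and comparison, and the 5 genes of highest Pearson r with Cd14 and with Tlr2. Ccr2, Plac8 and the genes named as under the filter stand outside it and were named after their values were seen. Alternatives were array centring, quantile normalization, no filter, a filter at the 60th percentile, averaging probe sets within genes, other variance models, array weights, 2 groups at a time, a replicate block, an epididymis covariate, an adjusted p under 0.1 and fits without single arrays or without both high-fat arrays numbered 4.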

Additional observations from a re-analysis of the deposited data

Results flagged for a closer look

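In 14-day array 4, Irak3 stood at 8.55, far below the nearest of its group, 9.28. The third Tlr4 probe set by mean signal stood at 7.61 there, against 8.59 for the nearest. These are 2 of 45 groups of 4 arrays checked over all 15 probe sets of the 10 genes, and chance alone gives about 1 in 20.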

How the results depend on the processing

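Cd14, Tlr2 and Icam1 kept lower means than chow in every fit that measured them, from −0.59 to −0.37, −0.43 to −0.29 and −0.50 to −0.28 at 5 days and from −0.97 to −0.72, −0.53 to −0.36 and −0.53 to −0.37 at 14 days. For Cd14 and Tlr2, picked for their fall on these arrays, the kept sign follows in part from that choice. The smallest 5-day fall of Cd14, −0.37 ± 0.13, came with the epididymis covariate. Genes called were 0 in each comparison, but with array weights 2015 at 5 days, 2979 at 14 days and 2212 at 14 against 5 days. They were 881, 1 and 723 without both high-fat arrays numbered 4, and 643 and 42 (5 days, 14 against 5 days) with the epididymis covariate. Fitting only 2 groups gave 213 at 5 days. Leaving out single arrays gave 0 to 123 at 5 days (123 without 14-day array 4) and 0 to 20 at 14 days (20 without 14-day array 2). With the 60th percentile filter 5 members remained, of which 3, 4 and 5 were lower in the 3 comparisons. At 14 against 5 days, 5 of 10 members were lower with array weights and 4 to 9 without single arrays. Some member values changed sign, none of them called before or after, and the cause was not tested. With array weights these were Ly96 0.059 and Myd88 −0.019 at 5 days, Tlr4 0.17 and Tnf 0.0011 at 14 days, and Tlr4 0.29, Irak3 0.11, Lbp 0.066 and Il1b 0.027 at 14 against 5 days. With the epididymis covariate they were Tlr4 0.39, Myd88 −0.11 and Irak3 0.30 at 5 days, Tlr4 0.0050 at 14 days, and Ly96 0.053 at 14 against 5 days. Without both arrays numbered 4 they were Ly96 0.0059, Myd88 −0.0065 and Il1b 0.0046 at 5 days, Tlr4 0.11, Irak3 0.040 and Tnf 0.0019 at 14 days, and Tlr4 0.29, Irak3 0.18 and Icam1 0.078 at 14 against 5 days. Quantile normalization gave Lbp −0.033 at 14 days. Without single arrays the 5-day range was −0.11 to 0.0059 for Ly96, −0.0065 to 0.054 for Myd88, −0.14 to 0.0028 for Irak3 and −0.11 to 0.0046 for Il1b. At 14 days it was −0.35 to 0.11 for Tlr4, −0.17 to 0.013 for Myd88, −0.24 to 0.040 for Irak3, −0.15 to 0.30 for Lbp and −0.082 to 0.011 for Tnf. At 14 against 5 days it was −0.15 to 0.0083 for Tlr2, −0.24 to 0.22 for Tlr4, −0.14 to 0.016 for Ly96, −0.19 to 0.091 for Irak3, −0.0068 to 0.094 for Tnf, −0.089 to 0.029 for Il1b and −0.13 to 0.026 for Icam1.

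The labels state no pairing, and deviations from group means correlated above 0.1 in 2 of 12 same-numbered pairs. This check cannot exclude a pairing, because array-wide differences such as epididymis signal enter the deviations. With the replicate block 0 genes were called in each comparison.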
